A study of Mus musculus with 10 samples.

Results

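The DNA dose of 8 loci that carry naive pluripotency genes, namely Pou5f1, Sox2, Nanog, Klf4, Tbx3, Esrrb, Tfcp2l1 and Prdm14, was followed in male mouse embryonic stem cells (mESCs) through 20 passages in 2 culture conditions. Each locus is the 1 Mb bin of the mm10 genome that holds the gene, and the 8 bins were picked by gene name from 2541 bins, not by their values. Naive pluripotency is the state of the preimplantation epiblast, and 2i/LIF medium holds mESCs in it by blocking MEK and GSK3 and by supplying leukaemia inhibitory factor. A network of transcription factors maintains this state, with Pou5f1 (Oct4), Sox2 and Nanog at its core and Klf4, Tbx3, Esrrb, Tfcp2l1 and Prdm14 as naive members, several of which respond to LIF or to GSK3 inhibition. What was measured here is the share of DNA reads at these loci, not expression. Before the correction for base composition described below the share also follows the GC content of the bin, so a dose below 1 is not by itself a loss of copies.

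The data comprised 10 low-coverage whole-genome libraries, with 2 in each of 5 groups. The cells were lines that the study had derived from C57/Bl6 males in Keniry2022 conditions and kept in 2i/LIF medium, and the labels name no transgene or drug for any group. The p0 group is the lines at the start, and the other groups are the same lines after 10 or 20 passages (p10, p20) in Keniry2022 or Mulas2019 conditions. Mulas2019 cells grew on gelatin at lower density in less medium and were passaged every other day, whereas Keniry2022 cells grew in suspension and were passaged daily. Only 2 lines were used, each split into both conditions at p0, so a group holds 1 library per line. Passages differ in length, so p20 in Keniry2022 conditions and p10 in Mulas2019 conditions are equal in days of culture. The 10 libraries held 27270648 to 35354358 reads, which gave 10698 to 19119 reads per locus and library and a counting error of 0.723% to 0.967%. In the p0, p10 and p20 Mulas2019 and p10 Keniry2022 groups replicate 1 had 0.000356% to 0.00145% of its reads on the Y chromosome and replicate 2 had 0.0377% to 0.0594%. The order was opposite in the library labelled p20 Keniry2022 replicate 1 (0.0441%, 95% Wilson interval 0.0433% to 0.0448%) and the library labelled p20 Keniry2022 replicate 2 (0.000673%, 0.000590% to 0.000767%). The fold changes reported here compare group means and do not rest on that order, other than through the modest weight of the line in the fit.

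The 8 bins differ in base composition, against which the changes are set below. The Pou5f1 bin (chr17:35000001-36000000) lies in the gene-dense major histocompatibility region, holds 62 protein-coding genes and had a GC content of 48.9%, above 96.4% of autosomal bins. Esrrb (chr12:86000001-87000000, 47.7% GC) and Tbx3 (chr5:119000001-120000000, 47.4%) followed, with 10 and 2 protein-coding genes. The middle of the order was held by Tfcp2l1 (chr1:118000001-119000000) at 44.8%, Klf4 (chr4:55000001-56000000) at 43.7% and Sox2 (chr3:34000001-35000000) at 43.3%. Nanog (chr6:122000001-123000000) at 43.2% and Prdm14 (chr1:13000001-14000000) at 42.9% were the poorest in GC. Every one of the 8 bins was richer in GC than the rest of its chromosome, by 1.91 (Prdm14) to 6.48 (Pou5f1) percentage points. The gene itself filled 0.206% (Sox2) to 16.1% (Esrrb) of its bin, so a dose here is that of the surrounding 1 Mb.

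The bases just upstream of the transcription start are shown for the core trio, since composition there can differ from that of the whole bin. The sequences are the 200 bases before the start in the RefSeq annotation of GRCm38.p6, 5′ to 3′, with each CG dinucleotide in capitals on the strand of the gene.
Pou5f1 (chr17:35505832-35506031, plus strand): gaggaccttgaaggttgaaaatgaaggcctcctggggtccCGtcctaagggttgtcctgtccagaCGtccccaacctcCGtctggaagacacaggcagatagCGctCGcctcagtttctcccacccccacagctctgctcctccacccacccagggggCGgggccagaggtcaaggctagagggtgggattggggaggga
Sox2 (chr3:34649795-34649994, plus strand): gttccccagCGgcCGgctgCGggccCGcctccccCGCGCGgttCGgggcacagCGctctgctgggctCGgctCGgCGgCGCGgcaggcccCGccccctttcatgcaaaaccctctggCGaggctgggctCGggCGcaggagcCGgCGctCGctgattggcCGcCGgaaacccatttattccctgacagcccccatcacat
Nanog (chr6:122707289-122707488, plus strand): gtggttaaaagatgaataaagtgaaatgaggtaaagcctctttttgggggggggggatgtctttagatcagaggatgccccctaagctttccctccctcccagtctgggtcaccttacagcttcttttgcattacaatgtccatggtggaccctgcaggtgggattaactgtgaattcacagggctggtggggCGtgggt
The stretch of Sox2 held 23 CG dinucleotides at 73.0% GC, that of Pou5f1 held 6 at 62.5%, and that of Nanog held 1 at 50.5%. Of 32851 upstream stretches of 250 bases in the same annotation, 92.13% held at least 1 CG, and the median GC content was 52.4%. The order of the 3 promoters therefore differs from that of their 1 Mb bins, where Pou5f1 was highest. The annotation table held 6 of the 8 genes, without Tbx3 and Prdm14.

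Dose is given as the share of a library's reads in the bin (CPM) divided by the p0 mean, and this is the genome scale. For the chromosome scale the bin is first divided by the median of the other bins of its chromosome in the same library. Changes are log2 fold changes (log2FC) with their SE from limma, tested with TREAT against a minimum fold of 1.1 and adjusted by Benjamini-Hochberg over all bins at 0.05. With 2 libraries per group the spread is estimated from all 10 libraries together.

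The first comparison asked what happened to the loci in Mulas2019 conditions. At p10 all 8 loci had a lower mean share of reads than at p0, with doses from 0.772 (Tbx3) to 0.954 (Prdm14), and 5 of 8 passed the test on the genome scale, all as lower. The background was high, since 58.8% of all bins passed in either direction and 25.7% were lower. The dose was lowest at Tbx3, Esrrb and Pou5f1, the GC-richest bins, and highest at Prdm14, the GC-poorest.

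Pou5f1 encodes the POU factor Oct4, without which pluripotent cells are lost. Its bin held 534 and 525 CPM in replicates 1 and 2 at p0 and 426 and 415 CPM at p10 Mulas2019. At p20 Mulas2019 it held 484 and 473 CPM, at p10 Keniry2022 503 and 477 CPM, and in the libraries labelled p20 Keniry2022 519 and 519 CPM. The p10 Mulas2019 libraries were the lowest of the 10, the p0 libraries the highest, and no group after p0 overlapped p0. At p10 Mulas2019 the bin fell by 0.33 ± 0.02 on the log2 scale (SE, n = 2 against 2), with a limma adjusted p of 5.2e-06. For this and the loci below, the share of all bins whose libraries separate in such an order was not counted.

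Esrrb encodes an orphan nuclear receptor that is a main target of GSK3 inhibition, and Tbx3 a T-box factor downstream of LIF. Esrrb had a dose of 0.786 and 0.796 at p10 Mulas2019, against 1.01 and 0.987 at p0. It had 0.925 and 0.898 at p20 Mulas2019, 0.932 and 0.897 at p10 Keniry2022, and 0.963 and 0.979 in the libraries labelled p20 Keniry2022. Again the p10 Mulas2019 libraries stood apart from all others, and no library after p0 reached the p0 values. Tbx3 showed the lowest doses of any locus, 0.768 and 0.776 at p10 Mulas2019. It stood at 0.911 and 0.869 at p20 Mulas2019, 0.938 and 0.907 at p10 Keniry2022, and 0.956 and 0.959 in the libraries labelled p20 Keniry2022, against 1.01 and 0.988 at p0. At p10 Mulas2019 Esrrb fell by 0.34 ± 0.02 and Tbx3 by 0.37 ± 0.02 on the log2 scale (limma adjusted p of 5.0e-06 and 1.5e-06), which put them at the 4.92 and 2.24 percentiles of all bins.

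Tfcp2l1 encodes a CP2-family factor and Klf4 a Kruppel-like factor, and both are activated by LIF through Stat3. At p10 Mulas2019 Tfcp2l1 had a dose of 0.863 and 0.849 and Klf4 of 0.880 and 0.870. Both bins were lower there than in any of the other 8 libraries, in which Tfcp2l1 spanned 0.925 to 1.02 and Klf4 0.953 to 1.004. Tfcp2l1 fell by 0.22 ± 0.02 and Klf4 by 0.19 ± 0.02 on the log2 scale (limma adjusted p of 0.00144 and 0.00527). These values depended on where the bins were set. With the grid shifted by 500 kb Klf4 did not pass (-0.08, limma adjusted p = 1), which left 4 of 8, and the log2FC was -0.37 at Tfcp2l1 and -0.22 at Pou5f1, which both passed. The share of all bins that passed on the shifted grid is not given here.

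The other 3 loci did not pass the test at p10 Mulas2019 on the genome scale with bins of 1 Mb. Nanog encodes the homeodomain factor that guards the naive state, and its bin also holds Dppa3 (Stella), a marker of naive cells. The Nanog bin stood at 0.898 and 0.891, below the 0.965 to 1.01 of the other 8 libraries, with a log2FC of -0.16 ± 0.02 (limma adjusted p = 0.18). Prdm14, a PR-domain protein that represses primed-state genes, had 0.973 and 0.935 against 1.001 and 0.999 at p0, and a log2FC of -0.07 ± 0.02. Sox2, the partner of Oct4 on DNA, had 0.909 and 0.949 and a log2FC of -0.11 ± 0.04 (limma adjusted p of 1 for both). Its SE was the largest of the 8.

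**Figure D1:**
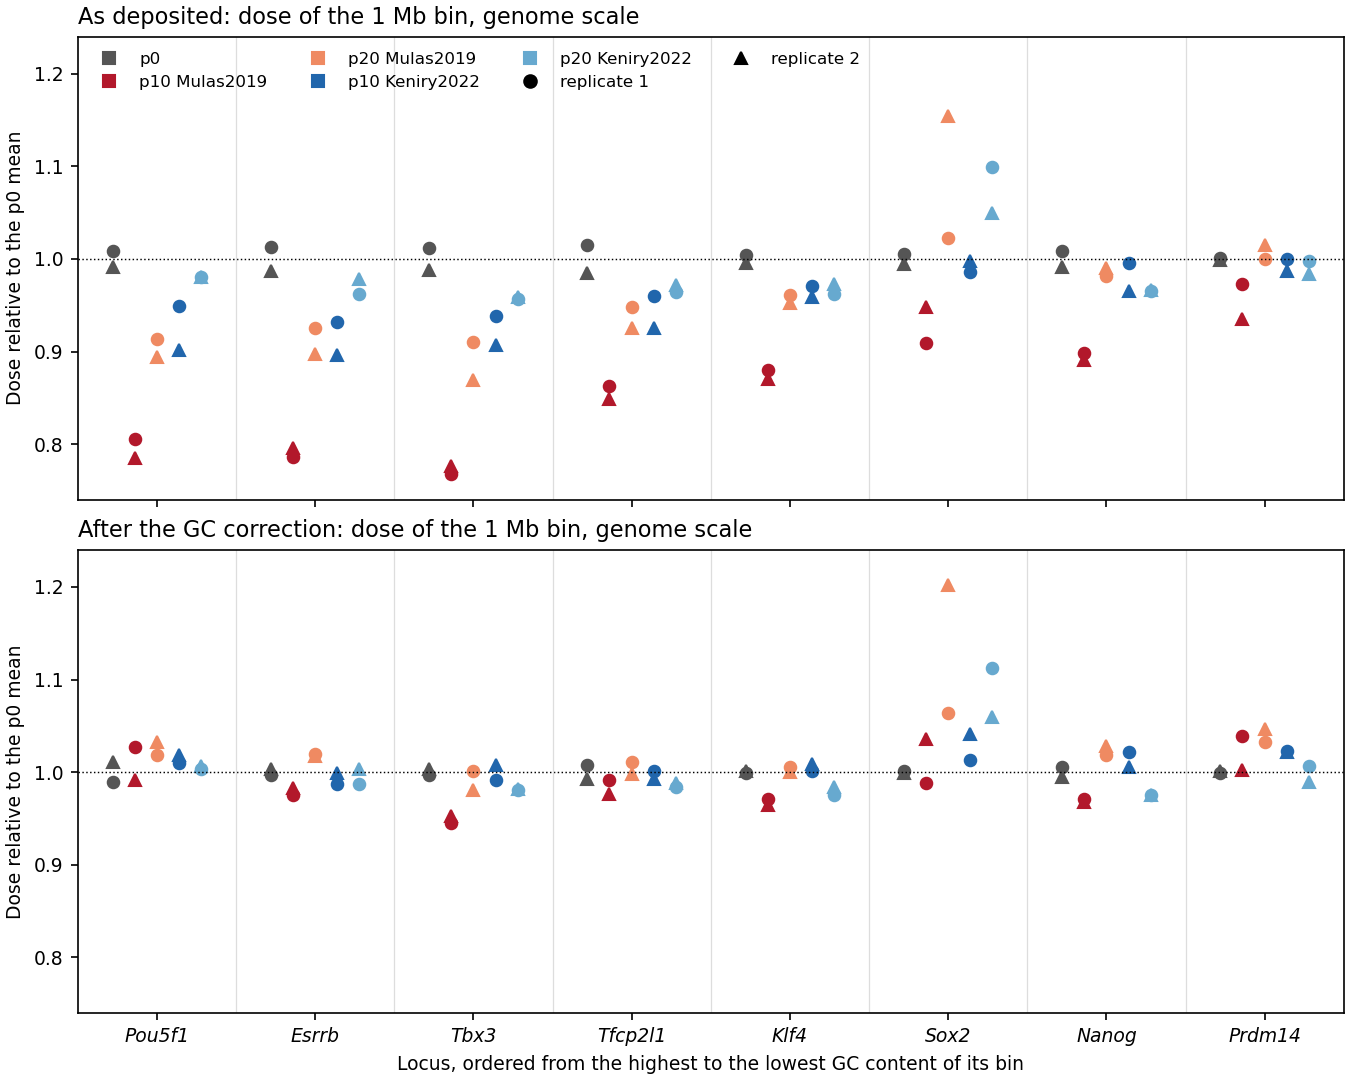
Dose of each 1 Mb bin relative to the p0 mean in each of the 10 libraries, with colours for the groups and circles and triangles for replicates 1 and 2, before (top) and after (bottom) the GC correction. Before the correction both p10 Mulas2019 libraries lie below the other 8 at every locus, down to 0.768 at Tbx3, and after it the highest value outside Sox2 is 1.05.

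After 20 passages in Mulas2019 conditions all loci but Sox2 lay closer to p0 on the genome scale, and the mean of Sox2 lay above p0 instead of below it. None of the 8 passed on either scale, where the background was 8.7% on the genome scale and 9.53% on the chromosome scale. At an unadjusted p under 0.05 the whole genome gave 542 and 444 bins, and voom left the count at 0 of 8. The log2FC ran from -0.17 ± 0.02 at Tbx3 to 0.12 ± 0.04 at Sox2, with a median of -0.08 over the 8 loci and 0.01 over all bins. Sox2 was the only locus with a replicate clearly above p0, at 1.15 in replicate 2 beside 1.02 in replicate 1.

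In Keniry2022 conditions 0 of 8 loci passed at p10 (background 4.05% and 5.94%) or at p20 (background 0% and 0%) by limma's TREAT or by voom. At an unadjusted p under 0.05 there were 344 and 336 bins at p10, and 20 and 0 bins at p20, on the genome and the chromosome scale. All 8 loci had values below 0 at p10, from -0.13 ± 0.02 at Esrrb to -0.01 ± 0.02 at Prdm14. At p20 the range over the 8 loci was -0.06 to 0.10, and only Sox2 was above 0. The 4 comparisons with p0 use the same 2 p0 libraries, so their likeness is not independent.

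The protocols were then compared directly. At p10 Keniry2022 cells had a higher share of reads than Mulas2019 cells at Tbx3 (log2FC 0.26 ± 0.02), Pou5f1 (0.22 ± 0.02) and Esrrb (0.21 ± 0.02), with limma adjusted p of 0.0013, 0.00821 and 0.0185. The other 5 did not pass, and 3 of 8 compares with a background of 29.4%, with 8.11% of all bins higher. Tbx3 passed in each of the 10 fits that left out 1 library. Pou5f1 did not pass without p10 Keniry2022 replicate 1 (adjusted p = 0.166) or p10 Mulas2019 replicate 2 (0.0706), and Esrrb did not without p10 Keniry2022 replicate 1 (0.232) or p10 Mulas2019 replicate 1 (0.129). Pou5f1 also lost the call with the shifted grid (0.15, limma adjusted p = 0.663), and Esrrb with centring on the autosomal median (0.0875). At p20 none of the 8 loci differed past the threshold between protocols, nor did any bin (background 0% on both scales, by limma and by voom), and 6 and 45 bins had an unadjusted p under 0.05.

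Matched for days of culture, p20 Keniry2022 was set against p10 Mulas2019. Tbx3, Pou5f1 and Esrrb were higher in Keniry2022 cells by 0.31 ± 0.02, 0.30 ± 0.02 and 0.30 ± 0.02 on the log2 scale (limma adjusted p of 2.7e-05, 2.8e-05 and 5.2e-05), and the background was 49.3%, with 19.6% of bins higher. These 3 stayed past the threshold without either of the libraries labelled p20 Keniry2022. Sox2 (0.21 ± 0.04, adjusted p = 0.114 in limma) passed without the library labelled p20 Keniry2022 replicate 2 and without either p20 Mulas2019 library, and Tfcp2l1 (0.18 ± 0.02, adjusted p = 0.0721) without that labelled replicate 1. Within Mulas2019 conditions, p20 was higher than p10 at Esrrb (0.20 ± 0.02) and Tbx3 (0.20 ± 0.02), with adjusted p of 0.0367 and 0.037 in limma and a background of 19%, with 1.02% of bins higher. Esrrb lost that call in 4 and Tbx3 in 5 of the 10 fits that left out 1 library, with the highest adjusted p in limma (0.24 and 0.369) without p20 Mulas2019 replicate 1. Both calls also depended on the replicate block, since neither passed without it (limma adjusted p of 0.0547 and 0.0607), nor with centring on the autosomal median (0.203 and 0.192) or the shifted grid (0.203 and 0.0885). Sox2 (0.23 ± 0.04) did not pass with all libraries but did without that one, at 0.31 (limma adjusted p = 0.000842).

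The second question was how each locus stood against the rest of its own chromosome. Measured so, 7 of 8 loci were lower at p10 Mulas2019 than at p0, all but Prdm14 (-0.10 ± 0.02). The background was 56.8% in either direction and 25.1% lower, and all 8 bins were GC-richer than their chromosomes. Esrrb fell by 0.36 ± 0.02, Sox2 by 0.27 ± 0.02, Tbx3 and Pou5f1 by 0.26 ± 0.02, Tfcp2l1 by 0.25 ± 0.02, Klf4 by 0.21 ± 0.02 and Nanog by 0.19 ± 0.02. Sox2, which did not pass on the genome scale, was thus among the lowest relative to its chromosome. The Nanog result did not pass without p0 replicate 1 (limma adjusted p = 0.0668) or p10 Mulas2019 replicate 1 (0.09). With the grid shifted by 500 kb 5 of 8 were lower, as Klf4 (-0.09) and Nanog (-0.06) did not pass (limma adjusted p of 1 for both), and Tfcp2l1 stood at -0.42. The background above is for the main grid, and none is given for the shifted one.

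Against p10 Mulas2019, p10 Keniry2022 was higher on the chromosome scale at Esrrb (0.23 ± 0.02), Tbx3 (0.20 ± 0.02) and Sox2 (0.18 ± 0.02), where the background was 27.3%, with 8.19% of bins higher. All 3 lost the call without p10 Keniry2022 replicate 1 or p10 Mulas2019 replicate 1 (limma adjusted p of 0.0874 to 0.257), and Sox2 also without p10 Mulas2019 replicate 2 (0.115). With the shifted grid Tbx3 and Sox2 did not pass (limma adjusted p of 0.391 and 0.0571), and Sox2 did not without the replicate block (0.0501) nor Tbx3 without the filter on low bins (0.0567). At matched days 6 of 8 were higher in p20 Keniry2022 (background 48.5%, with 20.6% higher), namely Esrrb (0.30 ± 0.02), Pou5f1 (0.24 ± 0.02), Sox2 (0.23 ± 0.02), Tbx3 (0.23 ± 0.02), Tfcp2l1 (0.22 ± 0.02) and Klf4 (0.19 ± 0.02). Klf4 lost the call without the library labelled p20 Keniry2022 replicate 2 (adjusted p = 0.0526 in limma) and with the shifted grid (0.06, adjusted p = 1). Between p20 and p10 in Mulas2019 conditions only Esrrb passed (0.24 ± 0.02, background 20.1%), and it did not without replicate 1 of either group (adjusted p of 0.0536 and 0.0669). The share of all bins that were higher was 3.31%.

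The calls also changed with the size of the bins. With the 100 kb bin that holds the gene start in place of the 1 Mb bin, 7 of 8 loci were lower at p10 Mulas2019 than at p0 on the genome scale and 8 of 8 on the chromosome scale, where 53.8% and 49.6% of all such bins passed in either direction. Shares of 100 kb bins are given here for either direction only, whereas the loci called within a comparison all went the same way. Nanog (-0.29 and -0.34, limma adjusted p of 0.0033 and 0.000218) and Prdm14 (-0.24 and -0.29, 0.0245 and 0.00248) were then lower on both scales. Between protocols at p10 there were 4 loci on each scale, where 16.8% of bins passed. Nanog (0.36 and 0.37) and Tfcp2l1 (0.30 and 0.32) gained the call on both scales, whereas Pou5f1 lost it on the genome scale (limma adjusted p = 0.197) and Tbx3 on the chromosome scale (0.145). At matched days Tfcp2l1 (0.33) joined the 3 loci on the genome scale, where 43.7% of bins passed. The chromosome scale kept a count of 6 (40.5% of bins), in which Nanog (0.26) and Prdm14 (0.29) took the place of Klf4 and Tbx3 (limma adjusted p of 0.199 and 0.127). From p10 to p20 Mulas2019 3 loci were higher on the genome scale, namely Esrrb, Sox2 and Tfcp2l1 (limma adjusted p of 0.0285, 0.0317 and 0.011), without Tbx3 (0.0547), and Esrrb and Tfcp2l1 on the chromosome scale (0.0112 and 0.00243), where 10.7% and 12% of bins passed.

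Other settings added calls as well. With the grid shifted by 500 kb Tfcp2l1 was higher between protocols at p10 on both scales (0.25 and 0.28), at matched days also on the genome scale (0.31) and from p10 to p20 Mulas2019 on both (0.20 and 0.23), with limma adjusted p of 1.65e-05 to 0.0395. Sox2 passed at matched days on the genome scale with that grid (0.24, limma adjusted p = 0.0449). With the mean of the other bins in place of their median, the chromosome scale added Pou5f1 (0.22) and Tfcp2l1 (0.19) between protocols at p10, Nanog (0.18) at matched days, and Tbx3 (0.22), Pou5f1 (0.20) and Tfcp2l1 (0.19) from p10 to p20 Mulas2019. With voom 2 loci passed from p10 to p20 Mulas2019 on the genome scale as before, but Sox2 (0.29, adjusted p = 0.0034 in limma) took the place of Tbx3 (0.0587).

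The changes from p0 at p10 followed the base composition of the bins. Over 2391 autosomal bins the log2FC at p10 Mulas2019 had a slope of -0.08 per percentage point of GC, and Pearson's r with GC content across bins was -0.953. Across the 8 loci r was -0.926. Bins of 1 library are not independent replicates, so these are descriptions. At p10 Keniry2022 the slope was -0.03 per point, with r of -0.935 over the bins and -0.924 over the 8 loci. Against p0 r was smaller in size at p20, where over the 8 loci it was -0.806 in Mulas2019 and -0.350 in Keniry2022 conditions (-0.903 and -0.719 over the bins), and for p20 against p10 Mulas2019 it was 0.545 (0.912 over the bins). Between protocols r over the 8 loci was 0.896 at p10, 0.969 at p20 and 0.897 at matched days (0.954, 0.946 and 0.959 over the bins). What lies behind this relation was not tested.

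**Figure D2:**
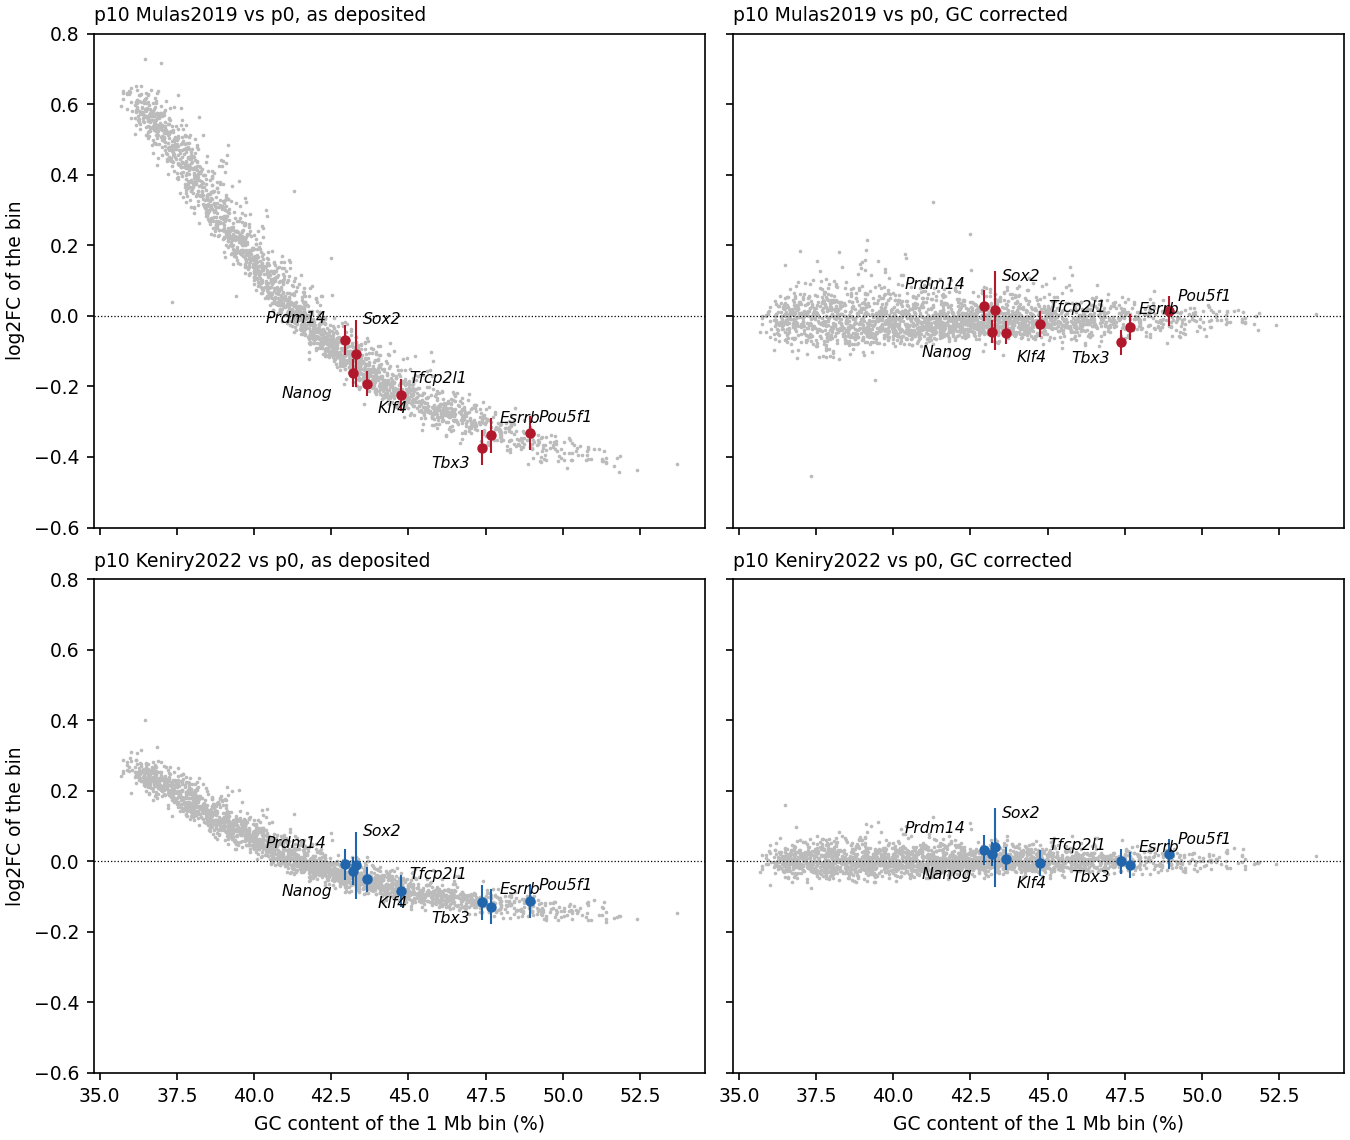
Log2FC of 1 Mb bins against their GC content in percent, for p10 Mulas2019 (top) and p10 Keniry2022 (bottom) against p0, before (left) and after (right) the GC correction. Grey points are the 2391 autosomal bins, coloured points the 8 loci with 95% intervals, and the loci lie on the band of the other bins, which slopes down on the left (r = -0.953 and -0.935) and is flat on the right.

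A loess curve of log2 CPM on GC content, fitted per library over the autosomal bins, was then subtracted. After this GC correction 0 of 8 loci passed limma's TREAT in any of the 8 comparisons on either scale. At p10 Mulas2019 the background was 0.0394% on the genome scale and 0.157% on the chromosome scale, and 7 and 8 bins passed at an unadjusted p under 0.05. Among the other 7 comparisons, where at most 11 bins did so, it was 0%, or 0.0787% at matched days, on the genome scale. On the chromosome scale it was 0% in 4 of them, 0.0787% between protocols at p10, 0.118% at matched days and 0.0394% between p20 and p10 Mulas2019. The doses of Pou5f1 at p10 Mulas2019 became 1.03 and 0.992, those of Esrrb 0.975 and 0.983, and those of Tbx3 0.945 and 0.953. Tbx3 therefore remained below all other libraries at its locus, at the 2.64 percentile of all bins, with a log2FC of -0.08 ± 0.02. With no minimum change Tbx3 passed on the genome scale in this comparison (limma adjusted p = 0.0204), where 8.89% of all bins did. Relative to chromosome 5 it was also lower (-0.06 ± 0.02, adjusted p = 0.0036 in limma with no minimum, background 22.1%).

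Relative to their chromosomes, Prdm14 and Pou5f1 lay above their p0 values after the correction. For Pou5f1 the 8 values after p0 were 1.01 to 1.03, against 0.995 and 1.005 at p0. The dose of Prdm14 relative to the rest of chromosome 1 was 1.05 and 1.02 at p10 Mulas2019, 1.04 and 1.06 at p20 Mulas2019, 1.03 and 1.02 at p10 Keniry2022, and 1.02 and 1.01 in the libraries labelled p20 Keniry2022. All 8 values exceeded both p0 values, of 1.005 and 0.995. On the genome scale this did not hold for Prdm14 in the library labelled p20 Keniry2022 replicate 2, at 0.990 against 0.999 and 1.001 at p0, nor for Pou5f1, which stood at 0.992 to 1.03 against 0.990 and 1.01. With no minimum change Prdm14 was higher at p10 Mulas2019 (0.05 ± 0.02, limma adjusted p = 0.0217) and at p20 Mulas2019 (0.07 ± 0.02, adjusted p = 0.0126), where 22.1% and 2.68% of bins passed. Klf4, at -0.04 ± 0.01, passed in the first of these comparisons (limma adjusted p = 0.0468), and Pou5f1 passed in neither. These differences are smaller than the fold of 1.1 set for a call. The share of all bins with every value after p0 above both p0 values was not counted.

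At Sox2 the rest of the chromosome was above p0 as well. After the GC correction the Sox2 bin had a dose of 0.988 and 1.04 at p10 Mulas2019, 1.06 and 1.20 at p20 Mulas2019, 1.01 and 1.04 at p10 Keniry2022, and 1.11 and 1.06 in the libraries labelled p20 Keniry2022. The rest of chromosome 3 had 1.01 and 1.04, 1.08 and 1.20, 1.01 and 1.03, and 1.12 and 1.05 in the same libraries. Locus and chromosome were thus high in the same libraries. The dose of Sox2 relative to chromosome 3 was 0.982 to 1.01 in all 8 libraries after p0. The log2FC of Sox2 from p0 was 0.18 ± 0.05 at p20 Mulas2019 and 0.12 ± 0.05 at p20 Keniry2022 on the genome scale, and neither passed (limma adjusted p of 1). At p20 Mulas2019 the value is set largely by replicate 2. For the other 7 loci the GC-corrected dose after p0 was 0.945 to 1.05 over 56 values.

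**Figure D3:**
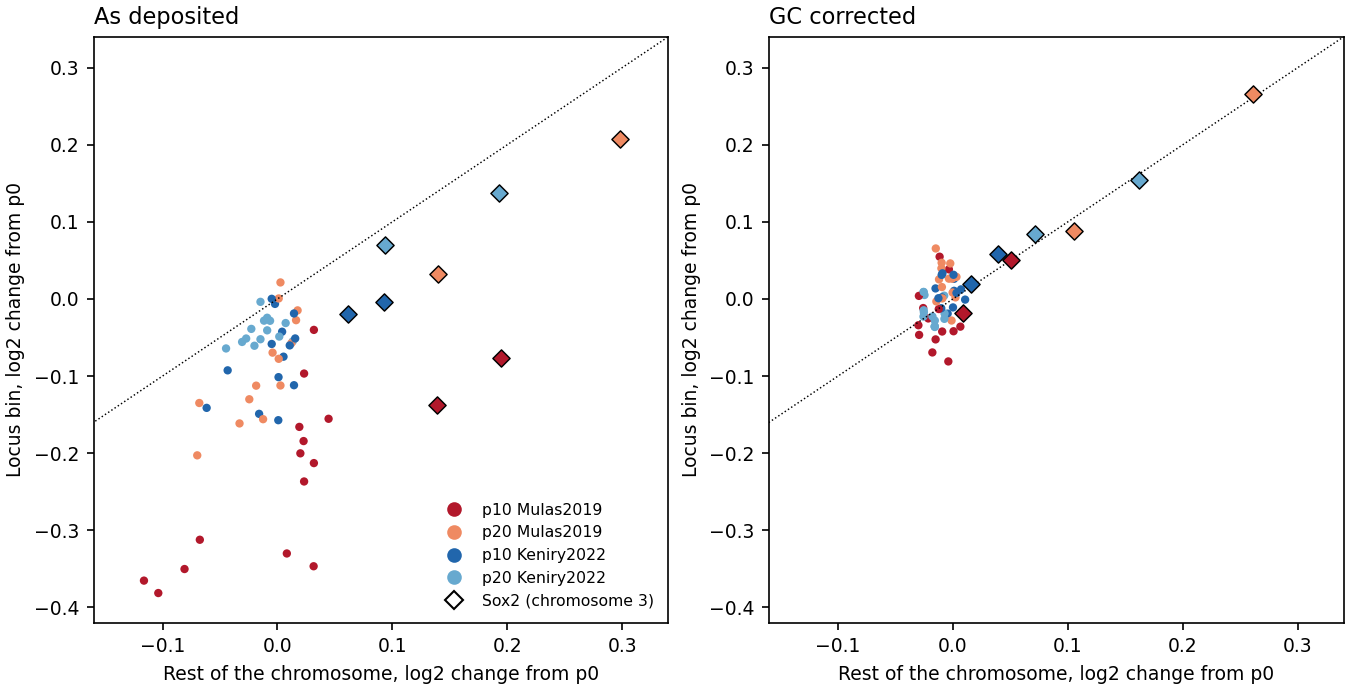
Log2 change from the p0 mean of each locus bin (vertical) against that of the median of the other bins of its chromosome (horizontal), one point per locus and library after p0, coloured by group, with Sox2 as outlined diamonds and a dotted line where both are equal. After the GC correction (right) Sox2 lies along the line up to a dose of 1.20, and the other 7 loci cluster around 0.

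The size of these doses can be set against whole copies. In a diploid cell a gain of 1 copy in every cell gives a dose of 1.5, or 0.58 on the log2 scale. Over the 4 comparisons with p0 the 95% intervals of the GC-corrected dose of the 8 loci lay between 0.926 and 1.22 on the genome scale and between 0.935 and 1.07 on the chromosome scale. The upper end of 1.22 belongs to Sox2 at p20 Mulas2019. A gain or loss in part of the cells can give doses within these intervals.

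Bins of 100 kb were used to look for changes smaller than 1 Mb. Such a bin held a mean of 1613 reads per library at Sox2, for a counting error of 2.49%. The 10 bins of 100 kb in the Sox2 locus had GC-corrected log2 changes of 0.09 to 0.28 at p20 Mulas2019, and the bin with the Sox2 start had 0.28. All 10 were above 0, as they were at p20 Keniry2022 (0.08 to 0.20) and, for Prdm14, at p20 Mulas2019 (0.02 to 0.12). All 10 bins of Tbx3 were below 0 at p10 Mulas2019, down to -0.11. At Pou5f1 the range over the 4 groups was -0.10 to 0.14, at Nanog -0.07 to 0.16, at Klf4 -0.10 to 0.07 and at Tbx3 -0.11 to 0.10. Esrrb had -0.08 to 0.09, Prdm14 -0.06 to 0.16 and Tfcp2l1 -0.12 to 0.19. None of the 100 kb means within the 8 loci reached 0.58.

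**Figure D4:**
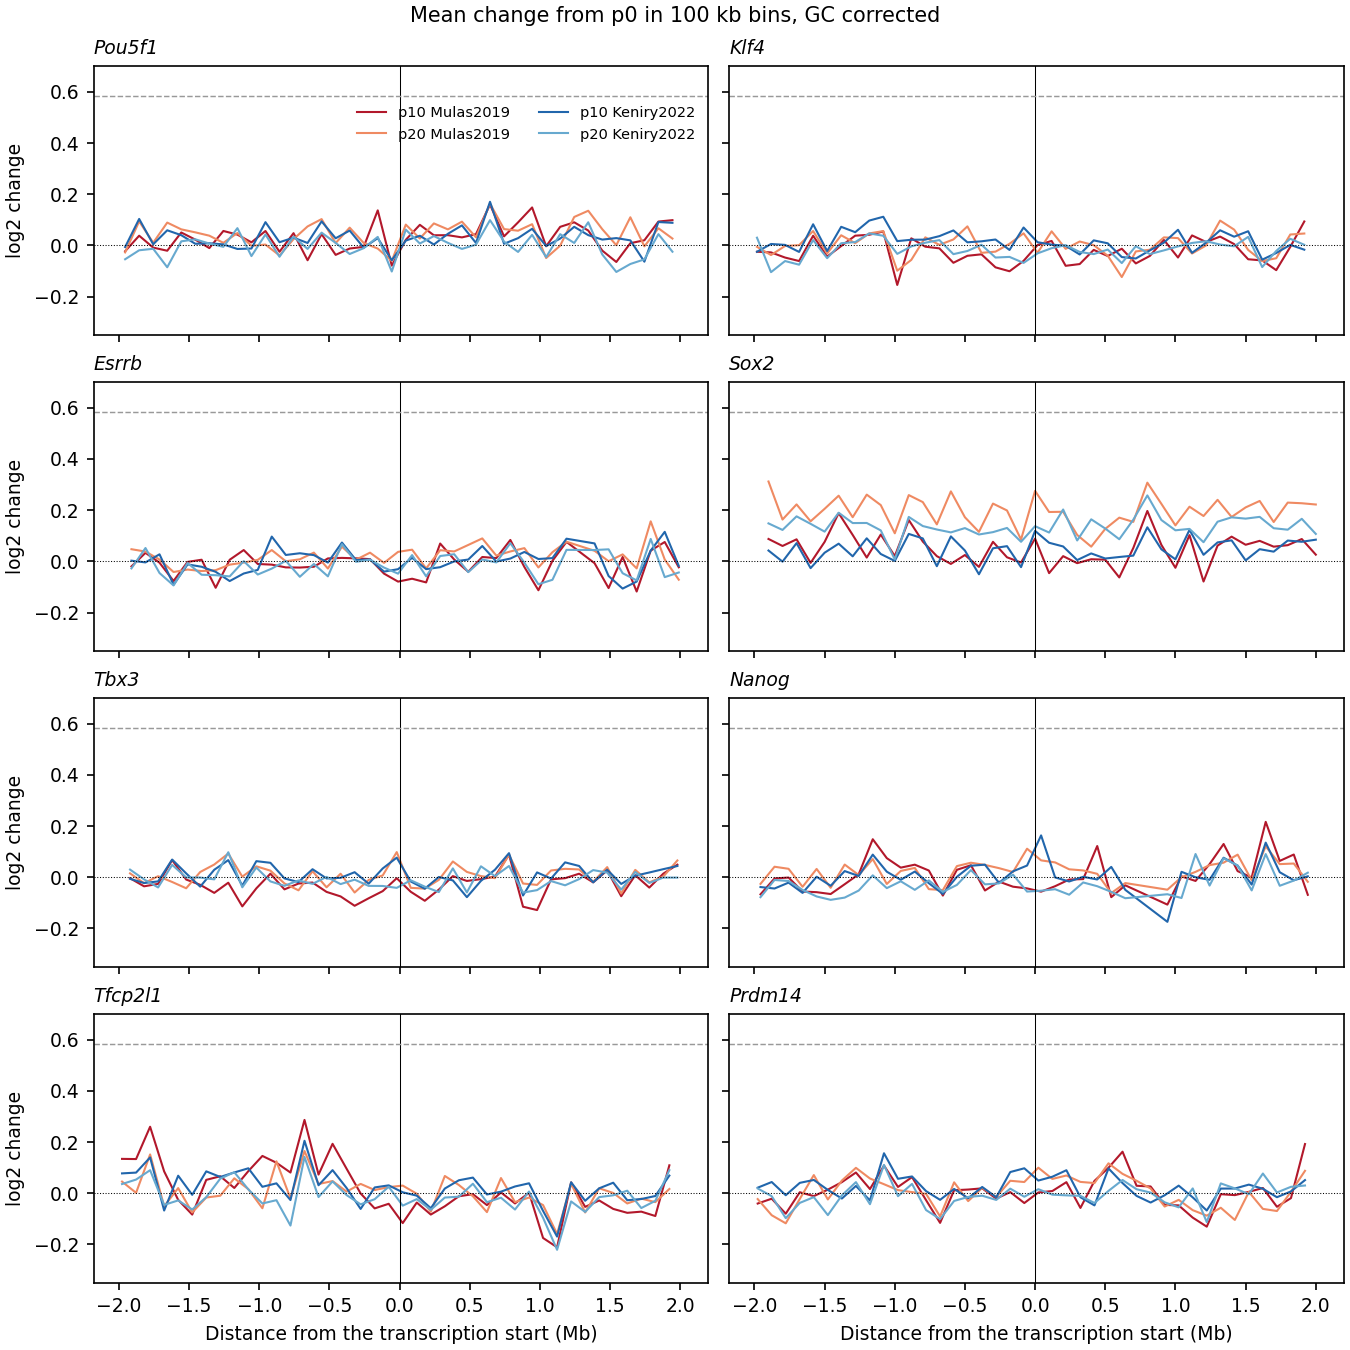
Mean GC-corrected log2 change from p0 of the 2 libraries of each group in 100 kb bins (vertical) against the distance of the bin centre from the transcription start in Mb (horizontal), one panel per locus and one line per group, with a dashed line at 0.58 for 1 extra copy in every cell. The p20 lines of both conditions run above 0 along the whole Sox2 panel, and in the other 7 panels each line crosses 0.

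The other genes of the network gave a setting for the 8 loci. Of 52 listed genes with the 8 included, the others fell into a further naive and core network class (15 bins), a LIF, Wnt and ERK signalling class (17 bins) and a class for exit from naive pluripotency (9 bins), or 41 bins apart from the 8. At p10 Mulas2019 on the genome scale 24 of 41 bins were lower than p0 and 2 were higher, namely 9 lower and 1 higher in the first class, 12 and 0 in the second, and 3 and 1 in the third. Of all bins 58.8% passed there and 25.7% were lower. Their median log2FC was -0.23, against 0.01 over all bins. Utf1, a chromatin factor of pluripotent cells in a bin of 49.3% GC, was the lowest (-0.38 ± 0.02), and Nr0b1, a nuclear receptor gene on the X chromosome with 38.5% GC, the highest (0.34 ± 0.04). On the chromosome scale, where 56.8% of all bins passed and 25.1% were lower, 23 were lower and 1 higher, from -0.52 ± 0.03 at Dusp9, an ERK phosphatase on the X chromosome, to 0.27 ± 0.03 at Zfp42 (Rex1), a naive marker in a bin of 39.6% GC.

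At p20 Mulas2019 1 of 41 passed on each scale, Utf1 (-0.22 ± 0.02) on the genome scale and Dusp9 (-0.25 ± 0.03) on the chromosome scale, beside 8.7% and 9.53% of all bins. In Keniry2022 conditions 0 of 41 passed against p0 at either passage by limma's TREAT, beside 4.05% and 5.94% of all bins at p10 and 0% at p20. At p10 13 of 41 were higher in Keniry2022 than in Mulas2019 cells on the genome scale, where 29.4% of all bins passed and 8.11% were higher, from 0.20 ± 0.02 at Pou3f1 to 0.26 ± 0.04 at Map2k2, the MEK2 kinase gene. Relative to the chromosome there were 10 (27.3% of all bins passed and 8.19% were higher), from 0.19 ± 0.02 at Otx2 to 0.33 ± 0.03 at Dusp9. At matched days 21 were higher in p20 Keniry2022 and 2 lower on the genome scale (49.3% of all bins passed and 19.6% were higher), with Map2k2 highest (0.36 ± 0.04) and Nr0b1 lowest (-0.31 ± 0.04). Relative to the chromosome 19 were higher and 1 lower (48.5% and 20.6%), with Dusp9 highest (0.46 ± 0.03) and Zfp42 lowest (-0.24 ± 0.03). Between p20 and p10 in Mulas2019 conditions Tcf7l1, a repressor relieved by GSK3 inhibition, passed on the genome scale (0.22 ± 0.02), and 4 bins on the chromosome scale, from 0.20 ± 0.02 at Gbx2 to 0.27 ± 0.03 at Dusp9. Of all bins 19% passed there on the genome scale, with 1.02% higher, and 20.1% on the chromosome scale, with 3.31% higher. After the GC correction 0 of 41 passed in any comparison on either scale, where 0% to 0.157% of all bins did.

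The profile of each locus over the 10 libraries was matched to the most similar one among the 8 and the 41, on another chromosome, by the root mean square difference of log2 dose. Pou5f1 was closest to Ctnnb1 (0.012 log2 units), Tfcp2l1 to Klf2 (0.015), Tbx3 and Esrrb to Stat3 (0.016 and 0.017) and Klf4 to Otx2 (0.017). Nanog was closest to Gsk3b and Prdm14 to Klf5, both at 0.024. The match of Sox2, to Prdm14, was the poorest at 0.087. In all 8 pairs the GC content of the bins differed by at most 1.53 percentage points.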

How the data were processed

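DNA of 10 mESC libraries was sequenced as 75 bp single-end reads and, per the submitters' processing notes and the methods of the study, mapped with Bowtie2 to mm10. The authors deposited 1 table of log2 values in 272566 windows of 10 kb. The deposited log2 values were whole reads per window scaled up to the total of the deepest library and logged, with 0.9 reads in empty windows. All of them gave back whole reads at a tolerance of 0.1 reads. The methods name bins of 1 Mb without blacklisted regions, but no window was missing from the table. The window ends matched the lengths of 21 of 21 chromosomes of GRCm38 (mm10), whose sequence and annotation gave GC content and gene positions. The 2 mitochondrial windows held 0 reads and were left out.

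Linear values were summed per 1 Mb and scaled to CPM, and of 2737 bins the 2541 with a mean of at least 0.1 of the median were kept (149 on X, 1 on Y, 2391 on autosomes). The chromosome scale holds 2540, without the lone Y bin. Depth was 27270648 to 35354358 reads per library, and counting errors cover counting only. Groups and replicate numbers came from the sample titles. limma 3.58.1 with a trended prior (R 4.3.3, statmod 1.5.0) was fitted to all 10 libraries with 5 group coefficients, the cell line as a random block (duplicateCorrelation, consensus correlation 0.132 on the genome and 0.138 on the chromosome scale), TREAT at a fold of 1.1 and Benjamini-Hochberg adjustment at 0.05. The study used voom, which was run here on the recovered reads as an alternative. Its minimum is printed as a log2FC of 1.1 (2.14-fold), a further alternative. The GC correction was a loess curve of span 0.3. In the GC-corrected fits the consensus correlation was negative, at -0.111 on the genome and -0.0639 on the chromosome scale. Other alternatives were no minimum change, no or a fixed or a crossed block, a shifted grid, bins of 100 kb, no filter, other centring and each library left out. The fits were also run on simulated reads with known changes. These changes had no relation to GC content, so that run cannot show how the fits behave with one.

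The same number marks the same line by the design of the study. The difference between replicates 1 and 2, after the GC correction, correlated at 0.0098 to 0.525 over 6 pairs of groups without p20 Keniry2022, and at -0.687 to -0.039 over the 4 pairs with it, so the pairing of these 2 libraries is in doubt.

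The 8 loci, the 3 gene lists and the tests were chosen with earlier results of these data known. All 8 loci are named, of the listed loci the highest and lowest past the threshold in each comparison and scale, and for each locus its most similar one. The remaining steps ran in Python 3.11.15 (pandas 2.3.3, numpy 2.4.6, matplotlib 3.10.9, scipy 1.17.1).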

Additional observations from a re-analysis of the deposited data

Results flagged for a closer look

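At p10 the difference between the protocols itself passed the test at 4 loci, 3 on each scale, and these are singled out because 2 groups that started from the same lines differed. On the genome scale the log2FC of Keniry2022 over Mulas2019 was 0.26 at Tbx3, 0.22 at Pou5f1 and 0.21 at Esrrb, where 29.4% of all bins passed and 8.11% were higher. On the chromosome scale it was 0.23 at Esrrb, 0.20 at Tbx3 and 0.18 at Sox2, where 27.3% passed and 8.19% were higher. With 1 library left out the count was 1 to 3 on the genome scale and 0 to 4 on the chromosome scale. With the grid shifted by 500 kb Pou5f1 did not pass on the genome scale, nor Tbx3 and Sox2 on the chromosome scale. In every case the Mulas2019 libraries had the lower share of reads. After the GC correction none of the 4 loci passed, and limma's log2FC over the 8 loci was 0.00 to 0.07 on the genome scale and -0.01 to 0.07 on the chromosome scale.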

How the results depend on the processing

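The GC correction with a random or a fixed replicate block, and the minimum log2FC of 1.1, left 0 of 8 loci in every comparison on both scales. With no minimum change the counts on the genome scale were 8 at p10 Mulas2019, 6 at p20 Mulas2019, 5 at p10 Keniry2022 and 0 at p20 Keniry2022 against p0, then 7 between protocols at p10, 3 at p20, 8 at matched days and 8 from p10 to p20 Mulas2019. On the chromosome scale they were 8, 6, 6, 0, 8, 6, 8 and 8 in that order. Of all bins 17.5% to 89.3% passed in these comparisons on the genome scale and 21.3% to 89.9% on the chromosome scale. With no minimum after the GC correction the genome scale gave 1 at p10 Mulas2019 and 0 elsewhere. The chromosome scale gave 3 at p10 and 1 at p20 Mulas2019 against p0, 2 between protocols at p10, 1 at matched days and 3 from p10 to p20 Mulas2019, with 0 in the others. Of all bins 0% to 8.89% and 0% to 22.1% passed there.

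From p10 to p20 Mulas2019 the count was 2 on the chromosome scale with bins of 100 kb and with the grid shifted by 500 kb, and 4 with the mean of the other bins. On the genome scale it was 1 with the shifted grid and 0 with centring on the autosomal median. The mean of the other bins gave 5 between protocols at p10 on the chromosome scale, and the shifted grid gave 5 at matched days on the genome scale. The cause was not tested in these cases. No share of all bins is given for the shifted grid, the mean of the other bins, centring on the autosomal median or fits without 1 library. The same holds for voom and for no replicate block from p10 to p20 Mulas2019. Counts of loci under those settings have no background of their own.

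Without the replicate block the count from p10 to p20 Mulas2019 on the genome scale was 0 instead of 2. Neither a fixed nor a crossed block moved another count by over 1.5 times without the GC correction, nor did voom or leaving out the filter on low bins. With voom the loci called from p10 to p20 Mulas2019 on the genome scale changed, with Sox2 in place of Tbx3.

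With 1 library left out at a time, where the lone library of its group is assumed to vary like the others, the counts were 5 in every fit (genome) and 6 to 7 (chromosome) at p10 Mulas2019. They were 1 to 3 and 0 to 4 between protocols at p10, 3 to 4 and 5 to 6 at matched days, and 0 to 2 and 0 to 1 from p10 to p20 Mulas2019. They were 0 in every fit for the other 4 comparisons.

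The sign of Pou5f1 turned after the GC correction, to 0.013 on the genome and 0.028 on the chromosome scale at p10 Mulas2019, and to -0.0062 at matched days on the genome scale. The sign of Prdm14 at p10 Mulas2019 on the chromosome scale also turned with the correction, to 0.050, which passed only with no minimum change. Pooled over all alternative settings, and not only the GC correction, a further 173 values changed sign with neither value past the threshold. In the same pool 2508 values kept their sign and their call or lack of one. Depth limits a median 1 Mb bin to a counting error of 0.829% to 0.940%.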
